A study of Mus musculus with 16 samples.

Results

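The lysosome and autophagy genes described here are 43 of the 46320 genes in the table. They were taken by gene symbol and fall into 12 subunits of the V-ATPase, 13 hydrolases, 6 genes of the lysosomal membrane and of cholesterol exit, 3 MiT-TFE transcription factors and 9 autophagy genes. All 43 symbols were in the table, and all 43 passed the filter on low counts. Transcripts were measured by bulk RNA sequencing of C57BL6/J mouse bone marrow-derived macrophages, grown for 7 days in medium with 15% L929-cell supernatant, a source of the macrophage growth factor M-CSF. After 4 hours in 0.5% serum the cells received one of 4 treatments for 4 hours: thrombin-activated mouse platelets, resting mouse platelets, thrombin without platelets, or PBS as vehicle. Each group held 4 libraries numbered 1 to 4, and every group shared the serum starvation. The treatment protocol gives thrombin at 0.01 U/mL, with and without platelets, whereas the labels of the thrombin group give 0.1 U/mL, so the dose of thrombin is uncertain. The libraries hold RNA of macrophages together with any platelet RNA left in the well, and nothing in the labels says whether libraries of a group came from separate animals or cultures, so the tests measure the spread between these libraries.

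Lysosomes are acidic compartments in which material taken up by phagocytosis, or delivered from inside the cell by autophagy, is broken down. The V-ATPase is the proton pump that acidifies them, with a cytosolic V1 sector that splits ATP and a membrane V0 sector that carries protons. TFEB, TFE3 and MITF are related transcription factors known to bind E-box motifs in promoters of many lysosomal genes, and nutrient-sensing kinases at the lysosome surface control where in the cell they reside. Macrophages digest particles, dead cells and lipids and are rich in cathepsins, the main lysosomal proteases.

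The E-box that MiT-TFE factors are known for was looked for in the 300 bases from 250 before to 50 after each gene's start, in the RefSeq promoters of GRCm38.p6. Of the 43 members 34 had an entry. The 8-base palindrome TCACGTGA lay in the window of 6 of the 34, or 17.6%, against 2.09% of 11154 tested genes and 1.12% of all 27025 genes with an entry. The windows below show these 6 matches in place, on the strand of the gene and 5′ to 3′, with the palindrome in capitals.
Atp6v0d1 (chr8:105566040-105566098, minus strand): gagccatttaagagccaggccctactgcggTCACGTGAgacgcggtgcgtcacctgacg
Atp6v1a (chr16:44139354-44139421, minus strand): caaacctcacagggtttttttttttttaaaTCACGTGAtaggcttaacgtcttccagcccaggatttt
Ctsa (chr2:164833730-164833797, plus strand): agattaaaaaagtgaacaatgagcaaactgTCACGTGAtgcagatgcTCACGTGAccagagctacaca
Ctsd (chr7:142387889-142387956, minus strand): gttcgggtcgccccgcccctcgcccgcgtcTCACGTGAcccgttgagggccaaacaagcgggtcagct
Gla (chrX:134601163-134601255, minus strand): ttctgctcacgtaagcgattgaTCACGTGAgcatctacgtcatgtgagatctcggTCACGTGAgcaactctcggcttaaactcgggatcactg
Mcoln1 (chr8:3500443-3500510, plus strand): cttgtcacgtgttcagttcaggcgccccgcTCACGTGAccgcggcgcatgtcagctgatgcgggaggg

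Ctsa and Gla each carried the palindrome at 2 places in the window. In Atp6v0d1 it began 4 bases before the start, in Mcoln1 46, in Ctsd 99 and in Atp6v1a 132. Both strands were searched, and 2 shorter motifs contained in the palindrome were counted. A longer form, the palindrome with G directly before it and C directly after it, was counted as well. Matches with other bases at either end, such as those in the windows above, do not count as this form. This longer form lay in 0 of the 34 members, against 0.771% of tested genes. The 7-base form TCACGTG lay in 32.4% of the members, against 6.76% of tested genes. The 6-base core CACGTG lay in 38.2% of the members, against 11.4% of tested genes. For the palindrome and the 2 shorter motifs, shares were lower than in the members among 154 other genes of the same pathways with an entry. The longer form lay in 0.649% of these. There the palindrome lay in 4.55%, TCACGTG in 14.9% and CACGTG in 16.9%. By group, the palindrome was in 2 of 8 V-ATPase genes, 3 of 12 hydrolases, 1 of 5 genes of the membrane and cholesterol exit, 0 of 3 MiT-TFE genes and 0 of 6 autophagy genes with an entry. A match describes letters only. The motifs were chosen with results of these data known, and the 6 genes with a palindrome were not all called: Atp6v1a, Atp6v0d1 and Mcoln1 fell with activated platelets against vehicle, whereas Ctsa, Ctsd and Gla had log2 fold changes of -0.15, 0.03 and -0.02 and did not pass. With the replicate number as a block Ctsa passed lower as well (-0.15, adjusted p = 0.000191).

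Library totals ran from 28034884 to 30602623 counts with activated platelets, 24857490 to 26355697 with resting platelets, 23149061 to 26716910 with thrombin and 22555094 to 27691609 with vehicle. The cells carried the macrophage markers: the 10 markers took 2.02 ± 0.191% of counts with activated platelets and 2 ± 0.158% with vehicle (SD, n = 4 each). Lyz2 led that sum, which does not describe single markers. Of the 10, 4 had a higher mean with activated platelets than with vehicle and 6 a lower one. The 20 platelet markers took 0.384 to 0.679% of counts with activated platelets, 0.247 to 0.47% with resting platelets, 0.229 to 0.398% with thrombin and 0.202 to 0.363% with vehicle. Thbs1, which macrophages express as well, led that list at 4840 CPM (counts relative to the TMM-scaled library total) with activated platelets and 2350 CPM with vehicle. Among the markers that define platelets, Gp9 averaged 7.94 CPM with activated platelets, 1.07 CPM with resting platelets, and was at 0 counts with thrombin and with vehicle. Ppbp averaged 35.7 CPM with activated platelets, 4.68 CPM with resting platelets, 0.209 CPM with thrombin and 0.242 CPM with vehicle. Of the 20 platelet markers 19 had a higher mean with activated platelets than with vehicle, among them Pf4 at 249 CPM with activated platelets and 199 CPM with vehicle and Vwf at 75.3 CPM with activated platelets and 74.9 CPM with vehicle, and F13a1 was lower, at 20.9 CPM with activated platelets and 25.7 CPM with vehicle. The summed platelet share did not overlap between activated platelets and vehicle, and for each replicate number it was higher with activated platelets. With 4 against 4 libraries, an exact two-sided permutation of the labels cannot give a p below 0.0286. The platelet share was at that floor, and over the 45 tests made the floor itself had an adjusted p of 0.143. No list could therefore pass, so this test cannot decide whether a share differed. Without Thbs1, a choice made after its values were seen, the other 19 took 0.0619 to 0.071% of counts with activated platelets and 0.042 to 0.0459% with vehicle. Another 3 marker lists did not overlap between these groups, each at the same p and adjusted p. Erythroid markers, led by Hba-a1, took 0.00107 ± 0.000263% of counts with activated platelets and 1.26e-05 ± 6.2e-06% with vehicle. Lymphocyte markers took 0.00171 ± 0.000513% with activated platelets and 0.00357 ± 0.000991% with vehicle, and dendritic cell markers 0.000288 ± 4.19e-05% with activated platelets and 0.000511 ± 3.06e-05% with vehicle. The neutrophil, stromal and osteoclast lists, like the macrophage list, overlapped. The part of these markers in the results below was not tested. Libraries with the same number deviated together. For 21 of the 43 members replicate 2 was the highest library in all 4 groups. Results are therefore given from a fit of the 4 groups without the number and, where the call differs, also from a fit with the number as a block.

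Per length, the members spanned a wide range in vehicle-treated macrophages. Ctsd, which encodes the aspartic protease cathepsin D, was the highest at 8200 ± 905 RPKM (CPM per kilobase of combined exons, SD, n = 4). Ctsb, a cysteine cathepsin, followed at 2680 ± 225 RPKM, Gpnmb, a membrane glycoprotein of lysosomes and melanosomes, at 2600 ± 478 RPKM, and Ctss, a cathepsin that trims the MHC class II invariant chain, at 2070 ± 290 RPKM. Neighbours among these last 3 differed by less than the sum of their SDs, and Ctsd stood apart from them. At the low end of the RPKM scale were Atg16l1 at 10.9 ± 0.467, Mitf at 9.12 ± 1.14, Tfeb at 8.5 ± 1.07 and Ctsk, the bone-matrix cathepsin of osteoclasts, at 7.83 ± 1.58. Mitf lay below Atg16l1 by more than the sum of their SDs, whereas Mitf and Tfeb, and Tfeb and Ctsk, differed by less than the SD of either. The 43 members together took 5.74 ± 0.506% of counts with activated platelets, 5.95 ± 0.495% with resting platelets, 6.15 ± 0.623% with thrombin and 6.07 ± 0.513% with vehicle, and the ranges of the groups overlapped.

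With activated platelets a subset of these genes fell. Of the 43 members 10 fell and 0 rose against vehicle in edgeR's quasi-likelihood test, with an adjusted p below 0.05 after Benjamini-Hochberg adjustment over all genes tested, and 33 did not pass. DESeq2 called 10 lower and 1, Sqstm1, higher. Over all 15610 genes tested, 25.8% passed, 12.2% higher and 13.6% lower. The members' share of calls, 23.3%, was thus near that of all genes, and all 10 of their calls were falls. The median log2 fold change was -0.10 over the members and -0.00 over all genes tested. In 9 of the members the 4 activated platelet libraries did not overlap the 4 vehicle libraries, against 26% of all genes tested. In bulk libraries fewer macrophages and less RNA per macrophage cannot be told apart. Most differences were small: 33 members lay within 1.2-fold of vehicle and 5 were changed by more than 1.4-fold. With the replicate block 24 members passed lower and 6 higher, where 42.5% of all genes tested passed, 22.5% lower and 20% higher. Without all libraries numbered 1, 6 members passed.

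**Figure D1:**
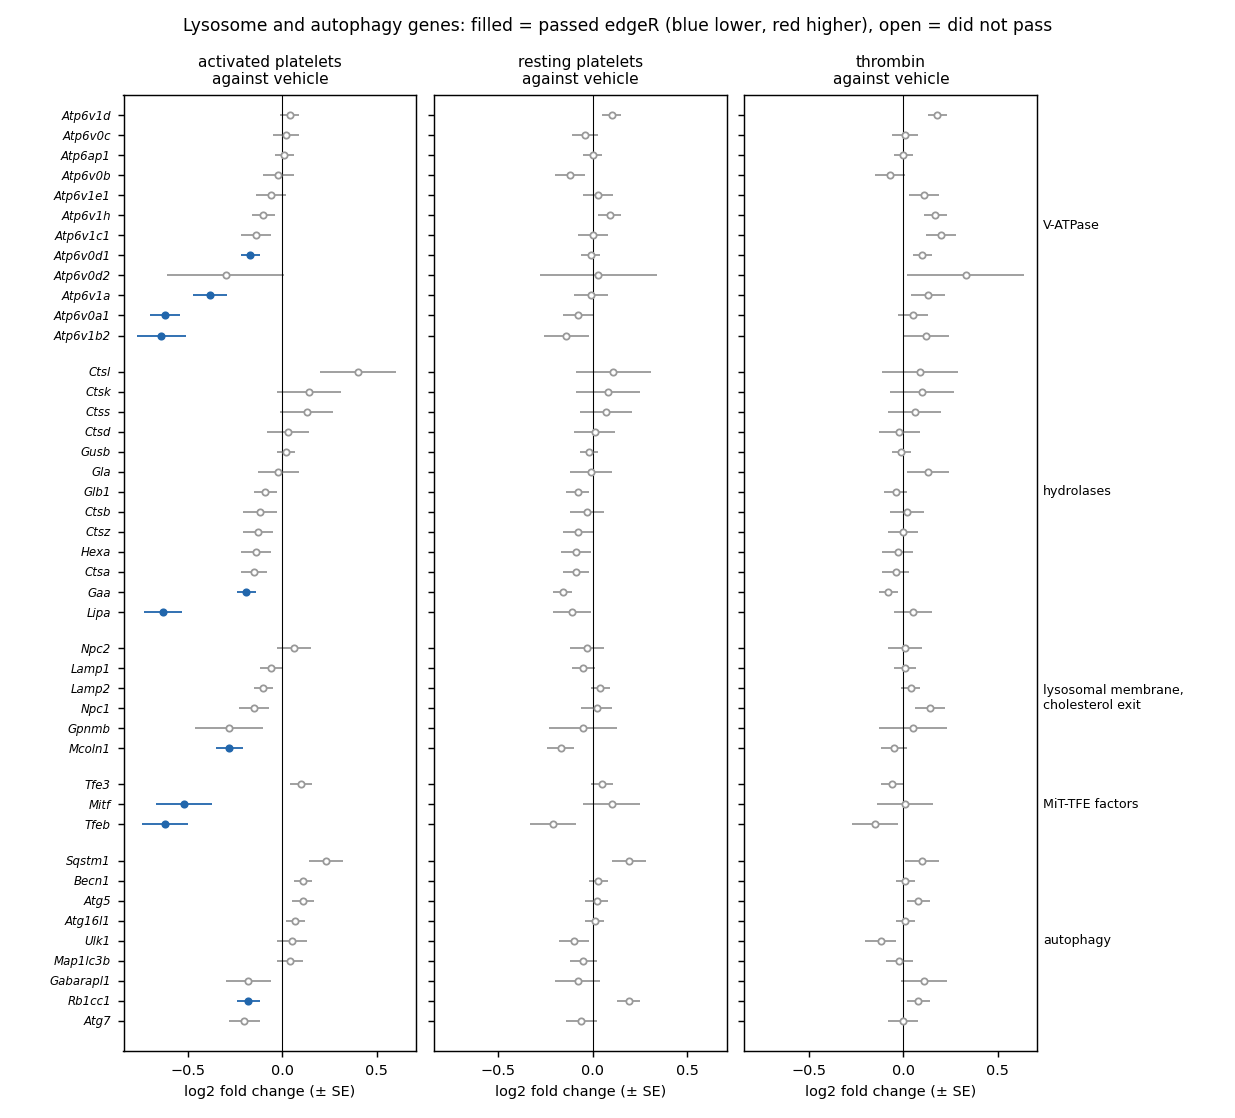
Log2 fold change (x axis, ± SE) of each of the 43 genes (rows, grouped by role) for activated platelets, resting platelets and thrombin, each against vehicle; filled points passed the edgeR test, open points did not. In the left panel 10 genes are filled, all lower, with Atp6v1b2, Lipa, Atp6v0a1 and Tfeb farthest from 0; in the other panels 0 are filled.

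The V-ATPase had 4 of its 12 genes lower with activated platelets than with vehicle and 0 higher. That is 33.3% lower, where 13.6% of all genes tested passed lower. Atp6v0a1, the membrane a-subunit of the V0 sector (chromosome 11, 100899262 to 100954545, GRCm39), had 204, 217, 199 and 184 CPM with activated platelets, 277, 318, 303 and 275 CPM with resting platelets, 323, 369, 309 and 280 CPM with thrombin, and 312, 332, 307 and 285 CPM with vehicle. Each activated platelet library lay below each of the other 12. The fold change was -0.62 ± 0.08 on the log2 scale (SE), or 1.54-fold lower than vehicle, with an adjusted p of 2.3e-05. Atp6v1b2, the B-subunit of the V1 sector that most cells use (chromosome 8, 69541388 to 69566370), had 307, 352, 336 and 294 CPM with activated platelets, 441, 532, 467 and 388 CPM with resting platelets, 534, 669, 521 and 469 CPM with thrombin, and 478, 631, 458 and 445 CPM with vehicle. It fell by 0.64 ± 0.13, or 1.56-fold, against vehicle (adjusted p = 0.00125), again with no overlap. The partner A-subunit gene Atp6v1a, which forms the ATP-splitting ring with B (chromosome 16, 43905765 to 43960064), had 619, 695, 661 and 583 CPM with activated platelets, 816, 914, 834 and 725 CPM with resting platelets, 895, 1000, 941 and 802 CPM with thrombin, and 779, 948, 837 and 759 CPM with vehicle. Its fall was smaller, 0.38 ± 0.09 or 1.3-fold (adjusted p = 0.00478).

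Atp6v0d1, the widely used d-subunit of V0, had 130, 132, 136 and 123 CPM with activated platelets, 139, 153, 154 and 135 CPM with resting platelets, 157, 163, 163 and 146 CPM with thrombin, and 147, 149, 146 and 145 CPM with vehicle. It fell by 0.17 ± 0.05 (adjusted p = 0.016), a call that ended without activated platelet replicate 4 (adjusted p = 0.0553) and without all libraries numbered 1 (adjusted p = 0.121) or 2 (adjusted p = 0.052). Its paralogue Atp6v0d2, the d-subunit of osteoclasts and some macrophages, varied far more between libraries, with 185, 312, 221 and 150 CPM with activated platelets, 248, 395, 259 and 187 CPM with resting platelets, 275, 526, 331 and 207 CPM with thrombin, and 236, 417, 236 and 180 CPM with vehicle. The groups overlapped throughout, and the log2 fold change of -0.30 ± 0.31 did not pass (adjusted p = 0.537). Within each replicate number the activated platelet library was the lowest of the 4, and with the replicate block the change was -0.28 (adjusted p = 7.08e-05). Of the other 7 subunits, the proteolipid genes Atp6v0b and Atp6v0c, the accessory subunit Atp6ap1 and the V1 genes Atp6v1c1, Atp6v1d, Atp6v1e1 and Atp6v1h had log2 fold changes between -0.14 and 0.04 and did not pass. With the block Atp6v1c1 (-0.13, adjusted p = 0.000248) and Atp6v1h (-0.10, adjusted p = 0.0442) passed as well. Transcripts of the 12 genes took 0.339 ± 0.0199% of counts with activated platelets and 0.396 ± 0.032% with vehicle.

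**Figure D2:**
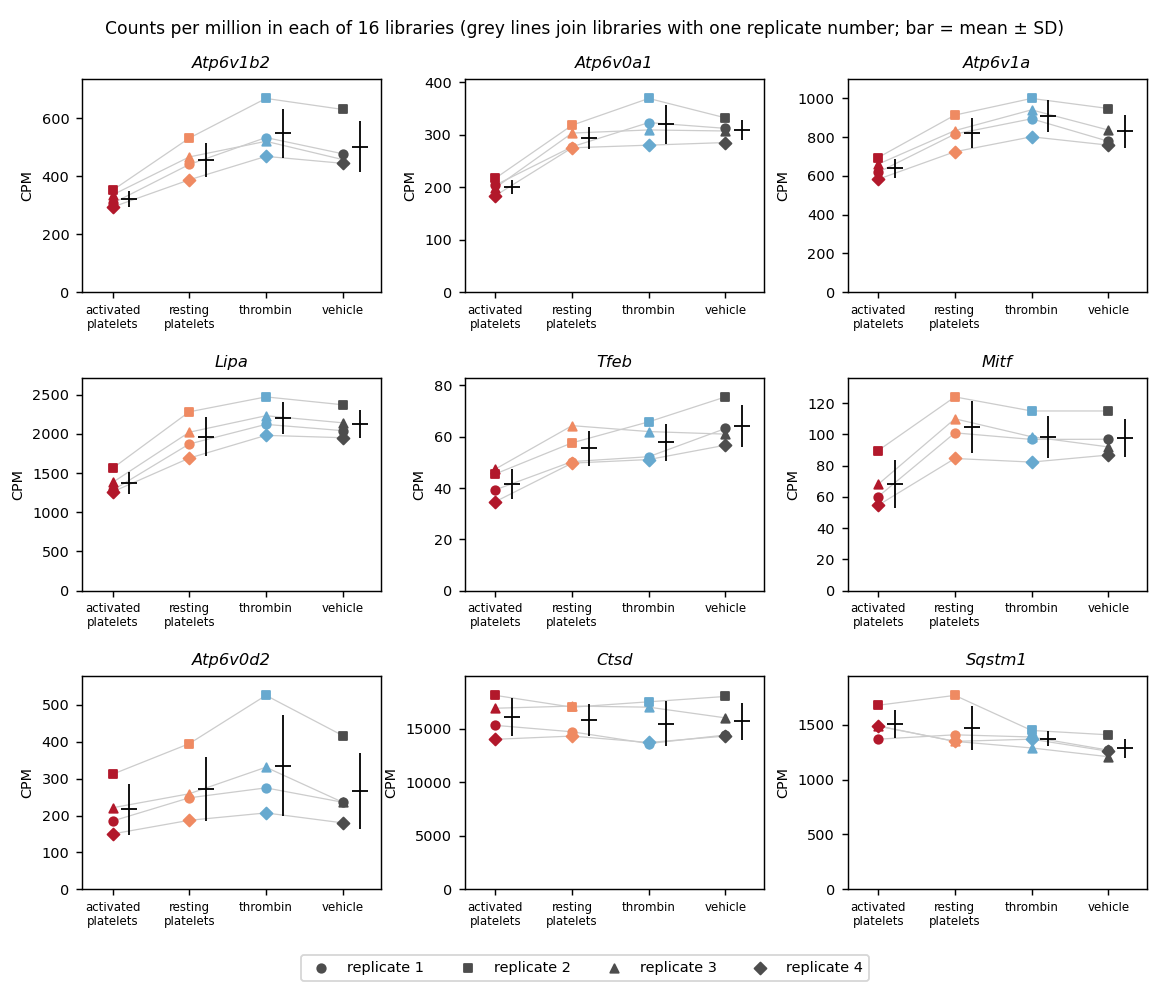
CPM (y axis, linear from 0) of 9 genes in each of the 16 libraries, with one symbol per replicate number, grey lines joining libraries of the same number, and bars for the mean ± SD of 4 libraries beside each group. Atp6v1b2, Atp6v0a1, Atp6v1a and Lipa are lowest in all 4 activated platelet libraries, Ctsd shows no separation, and replicate 2 (squares) sits high in most panels.

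Among the 13 hydrolases 2 fell with activated platelets against vehicle and 0 rose. The 15.4% that fell was near the 13.6% of all genes tested. Lipa, the acid lipase that frees cholesterol and fatty acids from ingested lipid esters (chromosome 19, 34469716 to 34504874), had 1280, 1560, 1380 and 1260 CPM with activated platelets, 1870, 2280, 2020 and 1690 CPM with resting platelets, 2120, 2470, 2230 and 1980 CPM with thrombin, and 2040, 2370, 2140 and 1950 CPM with vehicle. Its activated platelet libraries lay below all 12 others, and it fell by 0.63 ± 0.10 or 1.55-fold against vehicle (adjusted p = 0.000166). Gaa, the glycogen-degrading acid glucosidase, averaged 157 ± 4.79 CPM with activated platelets and 179 ± 9.54 CPM with vehicle and fell by 0.19 ± 0.05 (adjusted p = 0.0166). That call was lost without activated platelet replicate 1 (adjusted p = 0.0524), without vehicle replicate 2 (adjusted p = 0.058), and without all libraries numbered 2 (adjusted p = 0.123) or 4 (adjusted p = 0.0714).

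Ctsd had 15300, 18100, 16900 and 14000 CPM with activated platelets, 14700, 17000, 17100 and 14300 CPM with resting platelets, 13600, 17500, 17000 and 13700 CPM with thrombin, and 14400, 18000, 16000 and 14300 CPM with vehicle. No group stood apart, and its log2 fold change against vehicle was 0.03 ± 0.11 (adjusted p = 0.86). Ctsk had 16.1, 13.8, 11.6 and 13 CPM with activated platelets, 15.8, 12.7, 10.7 and 13.2 CPM with resting platelets, 17.3, 13.1, 10.2 and 12.4 CPM with thrombin, and 15.8, 12.7, 10 and 11.1 CPM with vehicle. These groups overlapped as well (log2 fold change 0.14 ± 0.17, adjusted p = 0.605). Ctsl, a broad-acting cysteine cathepsin that was chosen for mention after its values were seen, had 1760, 2110, 1510 and 1380 CPM with activated platelets and 1300, 1720, 1070 and 1030 CPM with vehicle. The groups overlapped, but the activated platelet library was the higher in 4 of 4 numbered pairs. The log2 fold change of 0.40 ± 0.20 did not pass without the block (adjusted p = 0.15), and with it the change was 0.42 (adjusted p = 1.12e-09). Across the other hydrolases, Ctsa, Ctsb, Ctss, Ctsz, Gla, Glb1, Hexa and Gusb, log2 fold changes ran from -0.15 to 0.13 and none passed. With the block 7 hydrolases passed lower, namely Lipa, Gaa, Glb1, Hexa (-0.14, adjusted p = 0.000177) and the cathepsins Ctsa (-0.15, adjusted p = 0.000191), Ctsb (-0.12, adjusted p = 0.000742) and Ctsz (-0.13, adjusted p = 0.00284), and 2, Ctsl and Ctss, higher. Of all genes tested 22.5% passed lower with the block and 20% higher.

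Of the 6 genes of the lysosomal membrane and cholesterol exit, 1 fell with activated platelets against vehicle, or 16.7%, where 13.6% of all genes tested fell. Mcoln1, the calcium-permeable channel TRPML1, averaged 64.9 ± 3.99 CPM with activated platelets and 79.1 ± 6.99 CPM with vehicle and fell by 0.28 ± 0.07 (adjusted p = 0.00904), with no overlap. Without all libraries numbered 1 the adjusted p was 0.0589. Lamp1, the main glycoprotein of the lysosomal membrane, had 2060, 2150, 2210 and 2010 CPM with activated platelets, 2090, 2150, 2280 and 2000 CPM with resting platelets, 2130, 2290, 2350 and 2090 CPM with thrombin, and 2150, 2240, 2300 and 2110 CPM with vehicle. All 4 groups overlapped, and its log2 fold change against vehicle was -0.06 ± 0.06 (adjusted p = 0.467). Npc1, the membrane transporter that exports cholesterol from lysosomes, had 397, 430, 420 and 382 CPM with activated platelets, 443, 507, 470 and 420 CPM with resting platelets, 498, 547, 507 and 445 CPM with thrombin, and 431, 503, 463 and 414 CPM with vehicle. It did not pass against vehicle (-0.15 ± 0.08, adjusted p = 0.155), and passed with the block (-0.15, adjusted p = 0.000106). Its soluble partner Npc2, which hands cholesterol to Npc1, had a log2 fold change of 0.06 ± 0.09.

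Gpnmb had 7490, 10100, 8760 and 6430 CPM with activated platelets, 8850, 11600, 10200 and 7550 CPM with resting platelets, 9390, 13100, 10900 and 7730 CPM with thrombin, and 9630, 12300, 9940 and 7840 CPM with vehicle. The groups overlapped, and the log2 fold change of -0.28 ± 0.18 did not pass (adjusted p = 0.298). Within each number the activated platelet library was the lowest, and the block gave -0.28 (adjusted p = 8.19e-08). With the block Lamp1 and Lamp2, a lysosomal membrane protein of chaperone-mediated autophagy and fusion, passed lower too, so that 5 of the 6 genes did. Of all genes tested 22.5% passed lower with the block.

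The MiT-TFE factors split. Tfeb (chromosome 17, 48047962 to 48103341) had 39.3, 45.5, 47.4 and 34.7 CPM with activated platelets, 50.3, 57.6, 64.3 and 49.7 CPM with resting platelets, 52.2, 65.8, 62 and 51.1 CPM with thrombin, and 63.2, 75.5, 61 and 56.7 CPM with vehicle. Its activated platelet libraries lay below all others, and it fell by 0.62 ± 0.12 or 1.54-fold against vehicle (adjusted p = 0.00103). Mitf (chromosome 6, 97783966 to 97998321) had 60.2, 89.7, 68.1 and 54.7 CPM with activated platelets, 101, 124, 110 and 84.6 CPM with resting platelets, 96.8, 115, 98.5 and 82.3 CPM with thrombin, and 96.9, 115, 92 and 86.8 CPM with vehicle. Replicate 2 of activated platelets overlapped the lower libraries of the other groups, though Mitf was lower with activated platelets in 4 of 4 numbered pairs. Its fall of 0.52 ± 0.15 passed (adjusted p = 0.0169), but not without activated platelet replicate 1 (0.0612) or 4 (0.0625), vehicle replicate 2 (0.0584), all libraries numbered 1 (0.167) or 3 (0.0819), or with no filter on low counts (0.0651). Tfe3 had 178, 198, 192 and 168 CPM with activated platelets, 167, 188, 181 and 171 CPM with resting platelets, 159, 175, 170 and 152 CPM with thrombin, and 168, 175, 175 and 167 CPM with vehicle. It did not pass against vehicle (0.10 ± 0.06, adjusted p = 0.205), and with the block it passed as higher (0.10, adjusted p = 0.00812).

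Of the 9 autophagy genes 1 fell with activated platelets and 0 rose, and all 9 lay within 1.2-fold of vehicle. The 11.1% that fell was near the 13.6% of all genes tested. Rb1cc1, the scaffold FIP200 of the kinase complex that starts autophagy, averaged 92.5 ± 2.03 CPM with activated platelets and 105 ± 5.85 CPM with vehicle and fell by 0.18 ± 0.06 (adjusted p = 0.0357). That call ended in 12 of 20 alternatives, in which the adjusted p ran up to 0.157; among them were the scaling by library totals (0.0885), the unfiltered fit (0.0514), and the fits without any 1 of the 4 activated platelet libraries (0.0575 to 0.0919), without vehicle replicate 1 (0.111), 3 (0.0631) or 4 (0.0987), or without all libraries numbered 1 (0.13), 3 (0.149) or 4 (0.157). Ulk1, the kinase of the same complex, had 91.2, 102, 110 and 89.5 CPM with activated platelets, 82.8, 94.7, 96.1 and 82.9 CPM with resting platelets, 81.4, 93.7, 94.4 and 81.2 CPM with thrombin, and 86.9, 104, 102 and 89.1 CPM with vehicle, with overlap throughout. Its log2 fold change against vehicle was 0.05 ± 0.08 (adjusted p = 0.742).

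Sqstm1, the cargo receptor p62, had 1370, 1680, 1490 and 1490 CPM with activated platelets, 1410, 1770, 1350 and 1350 CPM with resting platelets, 1390, 1450, 1290 and 1370 CPM with thrombin, and 1270, 1410, 1210 and 1260 CPM with vehicle. The activated platelet library was the higher in 4 of 4 pairs with vehicle, but the groups overlapped and the log2 fold change of 0.23 ± 0.09 did not pass in edgeR (adjusted p = 0.0656). It passed as higher in DESeq2 (adjusted p = 0.0479) and with the block (0.23, adjusted p = 9.96e-05). Map1lc3b, which encodes the LC3B that coats autophagosomes, had 175, 199, 192 and 171 CPM with activated platelets, 169, 185, 175 and 162 CPM with resting platelets, 168, 195, 186 and 159 CPM with thrombin, and 176, 199, 178 and 166 CPM with vehicle. Its groups overlapped, at a log2 fold change of 0.04 ± 0.07 against vehicle (adjusted p = 0.753). Gabarapl1, of the same protein family, had 157, 186, 175 and 140 CPM with activated platelets, 165, 203, 179 and 154 CPM with resting platelets, 181, 241, 206 and 177 CPM with thrombin, and 178, 220, 183 and 164 CPM with vehicle. It did not pass (-0.18 ± 0.12, adjusted p = 0.304), although it was lower in 4 of 4 pairs and the block gave -0.18 (adjusted p = 9.34e-05). The conjugation genes Atg5, Atg7 and Atg16l1 and the lipid-kinase subunit Becn1 had log2 fold changes from -0.20 to 0.11 and did not pass, and with the block Atg7 passed lower and Atg5 and Becn1 passed higher.

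No member passed with resting platelets or with thrombin alone. With resting platelets 0 of 43 members passed against vehicle, where 3.39% of all genes tested passed, 2.07% higher and 1.32% lower, and all 43 lay within 1.2-fold of vehicle. At an unadjusted p below 0.05, 2 members were higher and 2 lower. DESeq2 called 1 member, Rb1cc1, higher (adjusted p = 0.0445), and limma-voom called 0. The resting platelet libraries did not overlap vehicle for 1 member, Rb1cc1, against 11.5% of all genes tested. Rb1cc1 had 131, 110, 113 and 124 CPM with resting platelets and 110, 96.6, 105 and 108 CPM with vehicle (0.19 ± 0.06, adjusted p = 0.0845). With the block 3 members passed higher, namely Ctsl, Sqstm1 and Rb1cc1, and 9 lower, where 21.5% of all genes tested passed, 10.9% higher and 10.6% lower. Tfeb, which fell with activated platelets, had -0.21 ± 0.12 with resting platelets without the block (adjusted p = 0.357) and -0.21 with it (adjusted p = 0.00838).

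With thrombin alone 0 of 43 members passed against vehicle, where 0.288% of all genes tested passed, 0.0897% higher and 0.199% lower, and 42 lay within 1.2-fold. At an unadjusted p below 0.05, 3 members were higher and 0 lower, all 3 of them V-ATPase genes, and DESeq2 and limma-voom called 0. The thrombin libraries did not overlap vehicle for 1 member, Atp6v1d, against 6.68% of all genes tested. It had 87.3, 91.4, 96.5 and 84.1 CPM with thrombin and 76.5, 81.2, 83.7 and 75.8 CPM with vehicle (0.18 ± 0.05, adjusted p = 0.141). V-ATPase genes leaned upward, with 11 of 12 above 0 and a median log2 fold change of 0.12, against 0.01 over all genes tested. With the block 8 members passed higher, 5 of them V-ATPase genes, and 1, Ulk1, lower, where 8.23% of all genes tested passed, 3.91% higher and 4.32% lower. Fold changes for thrombin followed the GC content of genes, with a Spearman correlation of -0.483 over the 12944 tested genes that have a GC value, a description across genes that share the same libraries. With the block and a correction for GC content, 3 V-ATPase genes, 1 gene of the membrane group and 1 autophagy gene passed higher. The 8.23% of all genes tested comes from the block without that correction, so it is no measure for these counts.

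Against resting platelets, 9 members fell with activated platelets and 0 rose, where 15.8% of all genes tested passed, 8.49% lower and 7.34% higher. This comparison and the one against vehicle share the activated platelet libraries, so it is no separate evidence. The 9 were the V-ATPase genes Atp6v0a1 (-0.55 ± 0.08), Atp6v1b2 (-0.50 ± 0.13), Atp6v1a (-0.36 ± 0.09), Atp6v1h (-0.19 ± 0.06) and Atp6v0d1 (-0.16 ± 0.05), and Mitf (-0.62 ± 0.15), Lipa (-0.52 ± 0.10), Tfeb (-0.41 ± 0.12) and Rb1cc1 (-0.37 ± 0.06). In 6 of the 43 members the 2 groups did not overlap, against 19.5% of all genes tested. Mitf was the largest fall here, at an adjusted p of 0.00983. The 2 groups stood apart for Rb1cc1, with 91.7, 93.2, 90.2 and 95 CPM with activated platelets and 131, 110, 113 and 124 CPM with resting platelets (adjusted p = 0.000488). Of the 9 calls, those of Atp6v0a1, Lipa and Rb1cc1 held in all 20 alternatives run. Leaving out 1 library ended the call of Tfeb (activated platelet replicate 1 or 4, resting platelet replicate 2 or 3, adjusted p 0.061 to 0.0897) and of Atp6v0d1 (activated platelet replicate 1, 2 or 4, resting platelet replicate 2 or 3, adjusted p 0.0605 to 0.12). The call of Atp6v1h ended without any 1 of the 4 activated platelet libraries or without resting platelet replicate 1, 2 or 3 (adjusted p 0.0549 to 0.121). Without all libraries numbered 1, and likewise without those numbered 3, 3 members passed in place of 9; Atp6v1a (0.114 and 0.0783), Atp6v1b2 (0.126 and 0.0799) and Mitf (0.131 and 0.0946) lost their calls only then. With the block 19 members passed lower and 5 higher, where 34.5% of all genes tested passed, 18.6% lower and 15.9% higher.

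**Figure D3:**
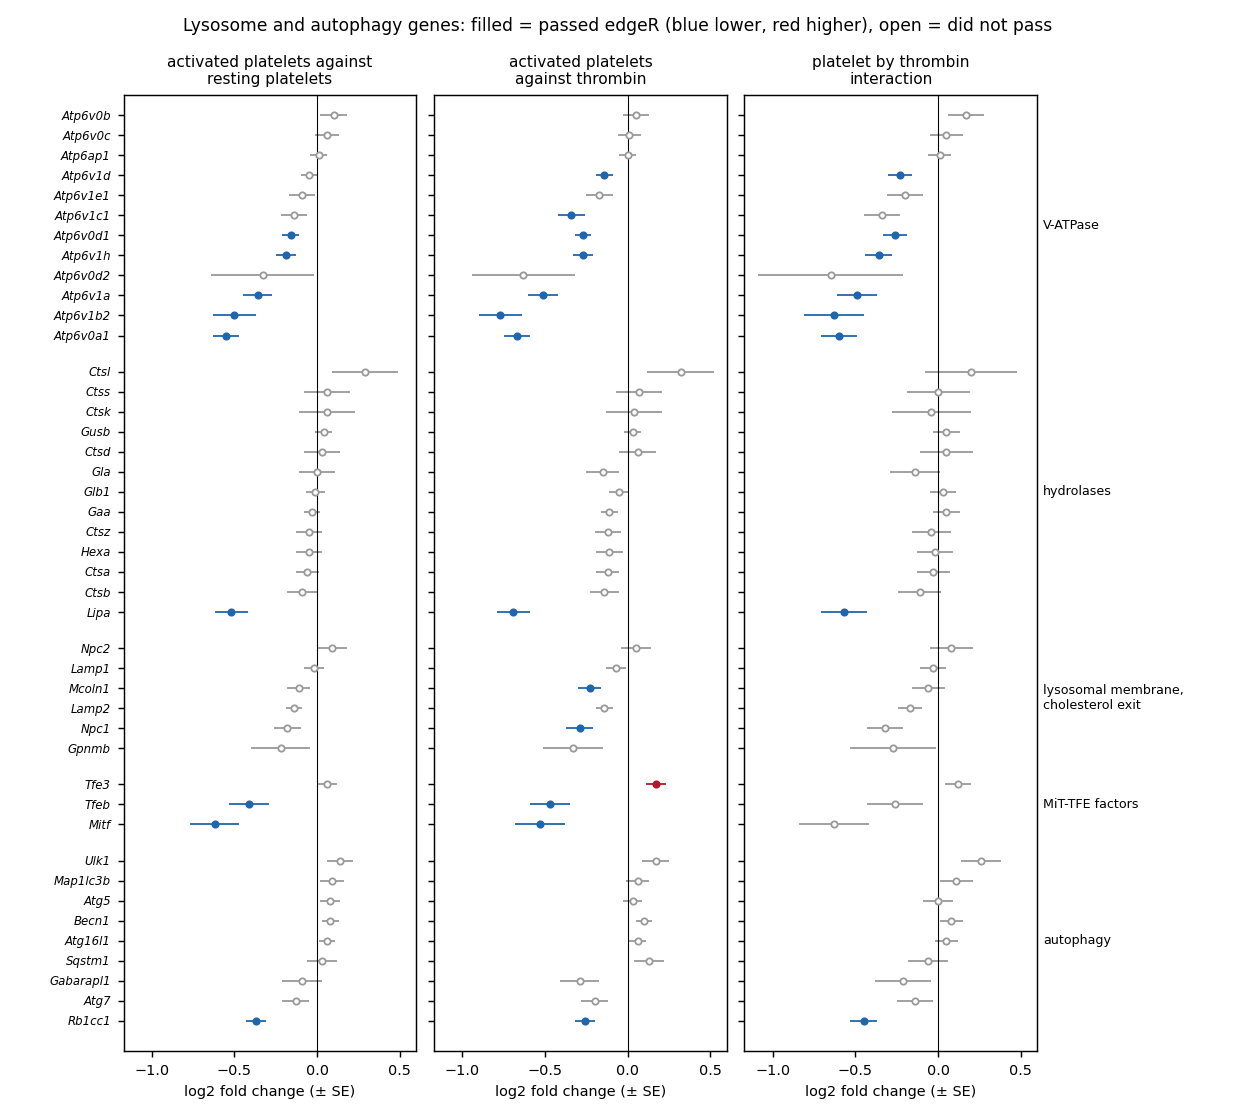
Log2 fold change (x axis, ± SE) of the 43 genes (rows, grouped by role) for activated platelets against resting platelets, activated platelets against thrombin, and the platelet by thrombin interaction; filled points passed the edgeR test. The left panel has 9 filled points, the middle panel 14, of which Tfe3 alone is higher, and the right panel 8, of which 6 are V-ATPase genes.

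Against thrombin alone, 13 members fell with activated platelets and 1 rose, where 25.4% of all genes tested passed, 13.5% lower and 11.9% higher. The V-ATPase accounted for 7 of the falls: Atp6v1b2 (-0.77 ± 0.13), Atp6v0a1 (-0.67 ± 0.08), Atp6v1a (-0.51 ± 0.09), Atp6v1c1 (-0.34 ± 0.08), Atp6v0d1 (-0.27 ± 0.05), Atp6v1h (-0.27 ± 0.06) and Atp6v1d (-0.14 ± 0.05). Lipa (-0.69 ± 0.10), Mitf (-0.53 ± 0.15), Tfeb (-0.47 ± 0.12), Npc1 (-0.29 ± 0.08), Rb1cc1 (-0.26 ± 0.06) and Mcoln1 (-0.23 ± 0.07) were the other 6. Tfe3 rose by 0.17 ± 0.06 (adjusted p = 0.0427), a call that ended in 7 of 20 alternatives, without activated platelet replicate 2 (0.132) or 3 (0.112), thrombin replicate 1 (0.107) or 4 (0.106), all libraries numbered 1 (0.128) or 3 (0.148), or with the 2 groups fitted alone (0.0861). The call of Atp6v1d ended in 16 of 20 alternatives, up to an adjusted p of 0.219, among them the block with a GC correction (-0.06, adjusted p = 0.1) and the fits without any 1 activated platelet library and without thrombin replicate 1, 2 or 3. Mcoln1 lost its call without activated platelet replicate 1 or 4 or thrombin replicate 2 or 3 (adjusted p 0.0529 to 0.0949), and Mitf without activated platelet replicate 1 or 4 or thrombin replicate 2 (adjusted p 0.0546 to 0.06). Activated platelet and thrombin libraries did not overlap for 12 members, all lower, against 25.4% of all genes tested. The count was 6 without all libraries numbered 1, where Npc1 (0.0948), Atp6v1c1 (0.0803), Atp6v1h (0.0501) and Tfeb (0.0597) no longer passed either, and 9 without those numbered 3, where Npc1 (0.0612) did not pass. Of the 14 calls 6 held in all 20 alternatives. With the block 26 members passed lower and 5 higher, where 41.6% of all genes tested passed, 22% lower and 19.6% higher.

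The interaction asks whether thrombin had another effect with platelets present, as activated against resting platelets, than without them, as thrombin against vehicle. It passed, in the downward direction, for 8 members, where 9.93% of all genes tested passed, 5.37% lower and 4.56% higher, and 6 of the 8 were V-ATPase genes. Atp6v1b2 differed by -0.63 ± 0.18 (adjusted p = 0.0333), Atp6v0a1 by -0.60 ± 0.11 (adjusted p = 0.00297), Lipa by -0.57 ± 0.14 (adjusted p = 0.0158), Atp6v1a by -0.49 ± 0.12 (adjusted p = 0.0199) and Rb1cc1 by -0.45 ± 0.08 (adjusted p = 0.00339). Atp6v1h differed by -0.36 ± 0.08 (adjusted p = 0.0122), Atp6v0d1 by -0.26 ± 0.07 (adjusted p = 0.0257) and Atp6v1d by -0.23 ± 0.07 (adjusted p = 0.0371). The mean of each of these 8 was lower with activated than with resting platelets and higher with thrombin than with vehicle, though no thrombin effect passed without the block. All 8 calls ended without the libraries numbered 1, and 2 calls were made without those numbered 3. Leaving out 1 library gave 5 to 11 calls, with 5 without activated platelet replicate 1 or 4, resting platelet replicate 2 or 3, thrombin replicate 2, or vehicle replicate 1 or 4. The interaction's fold changes also followed GC content (Spearman correlation 0.42 over the same 12944 genes, a description), and with the block and the GC correction Atp6v1d no longer passed (-0.09, adjusted p = 0.131). With the block 19 members passed lower and 5 higher, where 29.1% of all genes tested passed, 15.9% lower and 13.1% higher. The thrombin group and the activated platelet group are treated as if both had thrombin at one dose, which the labels leave uncertain.

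Among 182 other genes of the same pathways, 174 were tested, and 16 rose and 49 fell with activated platelets against vehicle; 1 rose and 3 fell with resting platelets, and 0 of 174 passed with thrombin. These are 37.4% with activated platelets, where 25.8% of all genes tested passed, 2.3% with resting platelets, where 3.39% passed, and 0% with thrombin, where 0.288% passed. This list was drawn up with earlier results of these data known. Genes of nutrient sensing at the lysosome, which tell the mTORC1 kinase whether amino acids are at hand, had 17 of 30 called with activated platelets against vehicle, 6 higher (20%, against 12.2% of all genes tested) and 11 lower (36.7%, against 13.6%). Sesn1, a stress-induced leucine sensor that restrains mTORC1, had 43.8, 51, 51.4 and 42.1 CPM with activated platelets, 97.1, 93.5, 123 and 91.7 CPM with resting platelets, 130, 141, 151 and 123 CPM with thrombin, and 129, 139, 139 and 125 CPM with vehicle. It was the largest fall of these lists, at -1.50 ± 0.10 against vehicle (adjusted p = 1.8e-08) and -1.11 ± 0.09 against resting platelets, and it also fell with resting platelets against vehicle (-0.39 ± 0.09, adjusted p = 0.0323). Rragd, a Rag GTPase that recruits mTORC1 and TFEB to lysosomes, averaged 13.3 ± 1.45 CPM with activated platelets and 23.7 ± 1.93 CPM with vehicle and fell by 0.83 ± 0.08, and Fnip2, a partner of folliculin in the control of Rag GTPases, fell by 0.72 ± 0.10. Ywhah, a 14-3-3 adaptor protein, rose by 0.67 ± 0.08, and the arginine-sensor genes Castor1 and Castor2 rose by 0.56 ± 0.10 and 0.38 ± 0.07. Against resting platelets Rragc, another Rag GTPase, fell by 0.29 ± 0.07, a call that ended without all libraries numbered 1 (adjusted p = 0.0953).

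**Figure D4:**
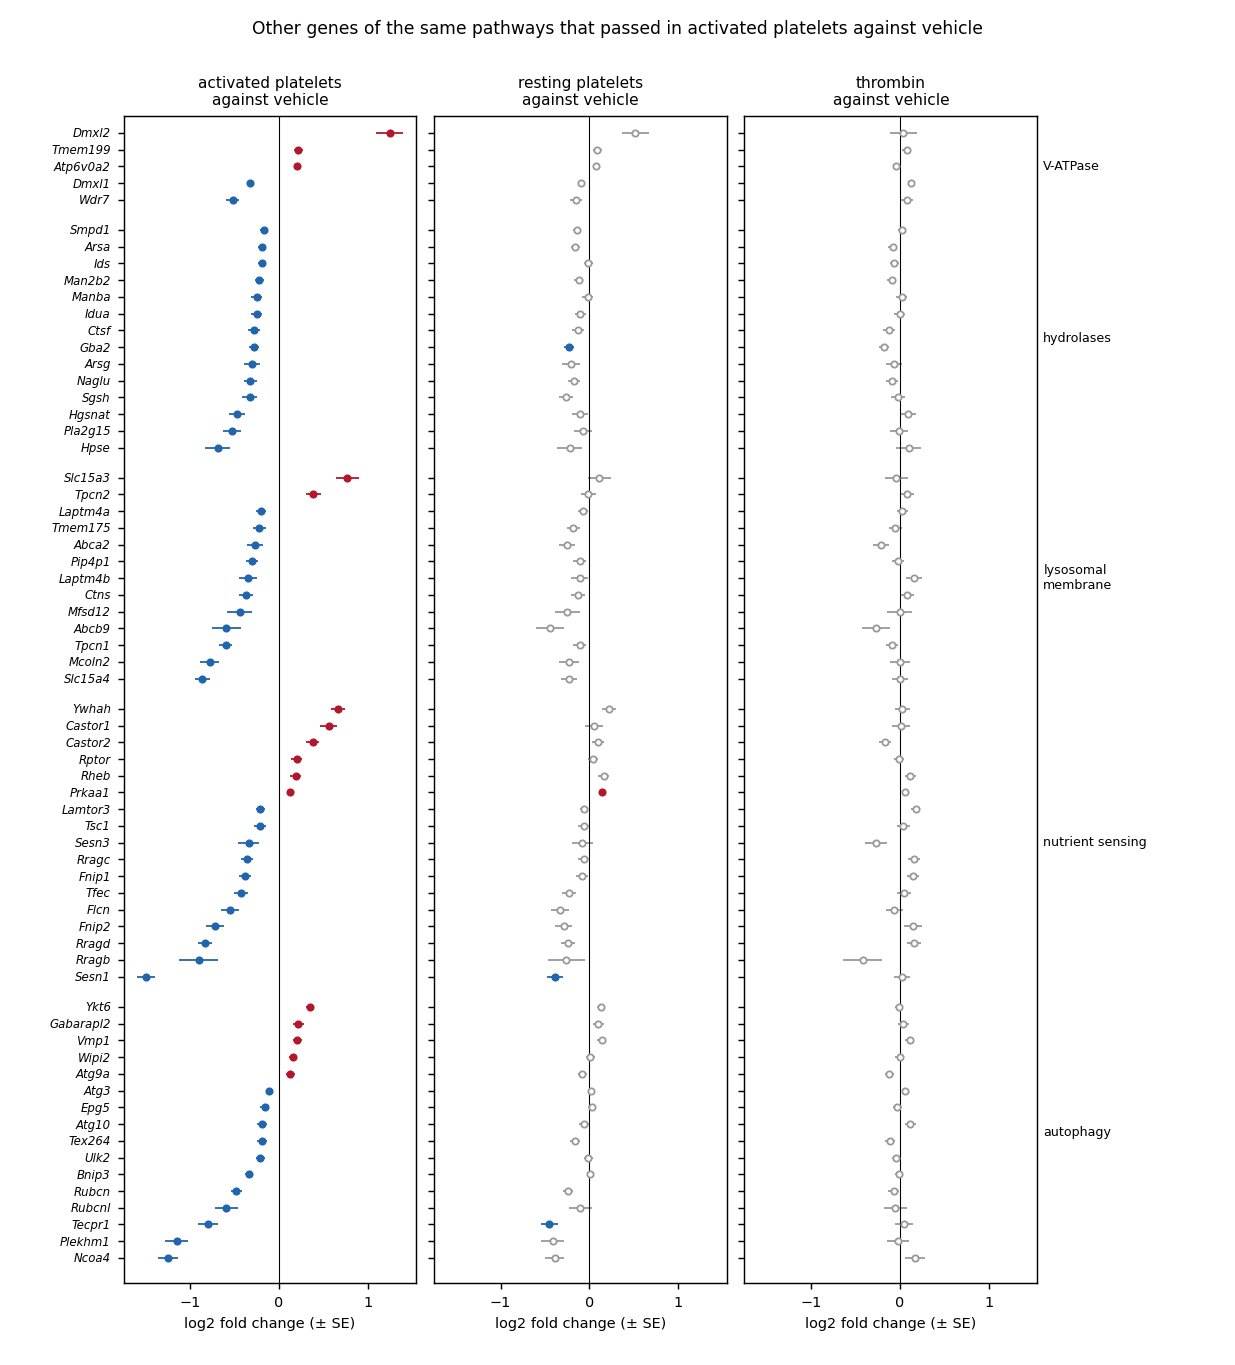
Log2 fold change (x axis, ± SE) of the 65 other pathway genes (rows, grouped by role) that passed with activated platelets against vehicle, shown for activated platelets, resting platelets and thrombin, each against vehicle; filled points passed. The left panel runs from Sesn1 at -1.50 to Dmxl2 at 1.25, and thrombin has 0 filled points.

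Of the other 51 autophagy genes 5 rose and 11 fell with activated platelets against vehicle, a called share of 31.4% that was near the 25.8% of all genes tested. Ncoa4, the receptor that delivers ferritin to autophagosomes, had 77.4, 92, 91.5 and 76.8 CPM with activated platelets, 144, 149, 181 and 135 CPM with resting platelets, 202, 255, 248 and 194 CPM with thrombin, and 184, 234, 201 and 183 CPM with vehicle. Its fall against vehicle was 1.25 ± 0.11 (adjusted p = 8.02e-07), and Plekhm1, an adaptor for fusion of autophagosomes with lysosomes, fell by 1.15 ± 0.13 (adjusted p = 6.58e-06). The mitophagy receptor Bnip3 fell by 0.34 ± 0.04. Ykt6, a SNARE of autophagosome fusion, rose by 0.35 ± 0.04, Vmp1, an endoplasmic reticulum protein of autophagosome formation, by 0.21 ± 0.05, and Gabarapl2 by 0.22 ± 0.06, a call that ended without all libraries numbered 1 (adjusted p = 0.0714) or 3 (adjusted p = 0.0573).

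Of 31 other genes of the lysosomal membrane 11 fell and 2 rose with activated platelets against vehicle, or 41.9% called. By direction 35.5% fell and 6.45% rose. Of all genes tested 25.8% passed, 13.6% lower and 12.2% higher. Slc15a4, a histidine and peptide transporter of endolysosomes, averaged 60.3 ± 6.46 CPM with activated platelets and 110 ± 6.61 CPM with vehicle and fell by 0.86 ± 0.09, while its relative Slc15a3 averaged 404 ± 42.7 CPM with activated platelets and 238 ± 36.2 CPM with vehicle and rose by 0.77 ± 0.13. The channel genes Tpcn1 and Mcoln2 fell by 0.60 ± 0.07 and 0.78 ± 0.11, and Tpcn2 rose by 0.39 ± 0.08. Of 48 other hydrolases 14 fell and 0 rose, or 29.2% called against 25.8% of all genes tested, among them the heparan sulfate genes Hgsnat (-0.47 ± 0.09) and Hpse (-0.69 ± 0.14) and the lysosomal phospholipase Pla2g15 (-0.53 ± 0.10). Of 14 other V-ATPase genes 3 rose and 2 fell, and 9 did not pass, or 35.7% called against 25.8% of all genes tested. Dmxl2, a subunit of the rabconnectin complex that helps V1 and V0 assemble, had 207, 275, 255 and 194 CPM with activated platelets, 123, 170, 154 and 115 CPM with resting platelets, 94.2, 112, 114 and 83.3 CPM with thrombin, and 90.3, 105, 114 and 82.3 CPM with vehicle, with no overlap between activated platelets and the rest. It rose by 1.25 ± 0.15 (adjusted p = 1.42e-05), whereas its relatives Dmxl1 and Wdr7 fell by 0.32 ± 0.04 and 0.52 ± 0.07. The alternative a-subunit Atp6v0a2 rose by 0.21 ± 0.03, in contrast to the fall of Atp6v0a1. The assembly factor Tmem199 rose by 0.22 ± 0.05, with an adjusted p of 0.0511 without all libraries numbered 3.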

How the data were processed

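The table, deposited by the authors, held estimated counts per gene without normalization, and gene coordinates on GRCm39. The submitters' processing notes name cutadapt 2.5, STAR 2.7.2b, featureCounts 1.6.4 and the Subread package, and the builds GRCm39 and mm10, with no roles. How strand and multi-mapping reads were handled is not stated in these sources, so overlapping, antisense and near-identical genes are uncertain. Of the values above 0, 25.5% were not whole; all were rounded, which moved 0.00734% of counts. The deposited combined exon length was used for RPKM, computed here. The members and gene lists were chosen with earlier results of these data known.

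Genes were filtered with filterByExpr (15610 of 46320 kept) and scaled by TMM. Groups were compared with edgeR 4.0.16 (R 4.3.3; robust quasi-likelihood fit), using the 16 libraries in 4 groups and no block term, two-sided, with Benjamini-Hochberg adjustment over all genes tested and a threshold of 0.05. The procedure was tested on simulated data in which libraries were independent, with no effect of the replicate number, so that test does not cover the pairing described below. Rose, fell and changed are used of genes past the threshold. SE stands for the standard error of the log2 fold change, and fold changes are given over the group named second. Library totals were 22555094 to 30602623 counts.

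Groups share replicate numbers. With group means removed, libraries of the same number correlated at 0.29 to 0.617 (24 pairs) and libraries of different numbers at -0.436 to 0.253, and for 16 of 16 the closest library had the same number. By the data, not the labels, the numbers were taken to pair the libraries. Chi-square per degree of freedom between libraries of one group was 8.67 to 37.1, so no pair was a repeat deposit of one library. The 9 marker sets, the platelet list with and without Pf4 among them, were compared by an exact permutation test over 70 arrangements, whose smallest p is 0.0286, adjusted over 45 tests.

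Values per library are given for 14 genes fixed by role and for the 4 largest called rises and falls of each comparison; from the other lists, up to 3 called rises and 3 called falls with the smallest p per list are named. Alternatives were DESeq2 1.42.0, limma-voom (limma 3.58.1), other scalings, no filter, fewer groups, the block with and without a GC correction, and libraries left out.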

Additional observations from a re-analysis of the deposited data

Results flagged for a closer look

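Among 72 groups of 4 libraries examined, 18 genes in 4 groups, 1 held a library far from the others by Dixon's test: Sqstm1 in replicate 2 of resting platelets, at 1770 CPM, against 1410 CPM in the nearest library. Chance puts about 1 in 20 groups past that limit.

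The effect of thrombin differed by the presence of platelets, in the test of the interaction itself, for 8 of 43 members, all lower. Of all genes tested 9.93% passed that test, 5.37% lower and 4.56% higher. The differences were -0.63 for Atp6v1b2, -0.60 for Atp6v0a1, -0.57 for Lipa, -0.49 for Atp6v1a, -0.45 for Rb1cc1, -0.36 for Atp6v1h, -0.26 for Atp6v0d1 and -0.23 for Atp6v1d on the log2 scale. None of the 8 passed without the libraries numbered 1. With the block and the GC correction Atp6v1d did not pass. The labels leave uncertain whether the thrombin and activated platelet groups had the same dose of thrombin.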

How the results depend on the processing

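With the replicate number as a block, the count of members called was 30 in place of 10 for activated platelets against vehicle, 12 in place of 0 for resting platelets, 9 in place of 0 for thrombin, 24 in place of 9 for activated against resting platelets, 31 in place of 14 against thrombin and 24 in place of 8 for the interaction. Calls over all genes tested rose with the block as well. In the same order their share was 42.5%, 21.5%, 8.23%, 34.5%, 41.6% and 29.1% with the block and no GC correction. Without the block it was 25.8%, 3.39%, 0.288%, 15.8%, 25.4% and 9.93%. With the block and a GC correction the counts were 32, 7, 5, 27, 30 and 24 in the same order. The shares of all genes tested given above come from fits without the GC correction, so they are no measure for these counts. GC content was known for 82.9% of genes tested. No member called without the block lost its call with the block alone; with the GC correction as well, Atp6v1d lost its call against thrombin (-0.06) and in the interaction (-0.09). DESeq2 called 1 member for resting platelets against vehicle; its other counts, and those of limma-voom, the other scalings, the unfiltered fit and the fit of the compared groups alone, lay within 1.5 times the count reported. Leaving out libraries gave 6 to 10 calls against vehicle, 0 for resting platelets and for thrombin, 3 to 9 for activated against resting platelets, 6 to 15 against thrombin and 0 to 11 for the interaction. The platelet marker share was 0.272 percentage points higher with activated platelets than with vehicle, and 0.245 to 0.302 without 1 number, where 3 against 3 libraries cannot pass the exact test; without Thbs1, an alternative chosen after seeing the data, it was 0.0228, so most of the difference lay in that gene. Small differences near 0 changed sign in 30 of 222 pairs of gene and comparison, none of them called in either setting; the causes were not tested. For activated platelets against vehicle, the log2 fold changes without libraries were Ctsd -0.03 to 0.11, Map1lc3b -0.00 to 0.09 and Ulk1 -0.02 to 0.09. For resting platelets against vehicle, the log2 fold changes without libraries were Atp6v0d1 -0.05 to 0.01 (0.00 with the block and GC correction), Atp6v0d2 -0.21 to 0.33 (-0.03 with the block and GC correction), Atp6v1a -0.07 to 0.05, Ctsd -0.04 to 0.08 (-0.00 with library totals), Ctsk -0.03 to 0.22, Ctsl -0.05 to 0.29, Gabarapl1 -0.16 to 0.01, Gpnmb -0.16 to 0.06 and Npc1 -0.03 to 0.08 (-0.01 with the block and GC correction). For thrombin against vehicle, the log2 fold changes without libraries were Atp6v0a1 -0.02 to 0.11, Ctsd -0.09 to 0.05 (0.03 with the block and GC correction), Ctsk -0.06 to 0.23, Gpnmb -0.09 to 0.17, Lamp1 -0.02 to 0.03, Lipa -0.01 to 0.11 (-0.01 with the block and GC correction), Map1lc3b -0.07 to 0.03 (0.00 with the block and GC correction) and Mitf -0.08 to 0.09 (-0.02 with the block and GC correction). For activated against resting platelets, the log2 fold changes without libraries were Ctsd -0.03 to 0.10 (-0.02 with the block and GC correction), Ctsk -0.03 to 0.16, Lamp1 -0.04 to 0.02 and Sqstm1 -0.02 to 0.14. For activated platelets against thrombin, the log2 fold changes without libraries were Ctsd -0.01 to 0.13 and Ctsk -0.07 to 0.19. For the interaction, the log2 fold changes without libraries were Ctsd -0.02 to 0.12 (-0.05 with the block and GC correction), Ctsk -0.17 to 0.12 (0.01 with the block and GC correction), Lamp1 -0.05 to 0.01 and Sqstm1 -0.12 to 0.04.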
